A study of Rattus norvegicus with 12 samples.

Results

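Flavin-containing monooxygenases (FMOs) are a family of drug-oxidising enzymes, and their genes were followed in heart RNA of rats given the kinase inhibitor sorafenib. The members were taken by symbol from the tables of read counts per gene, and all 5 symbols (Fmo1, Fmo2, Fmo4, Fmo5 and Fmo6) were found among the 34322 genes. The set was chosen by symbol, with the sorafenib to water fold changes of these same libraries already seen. The sorafenib values of the members are therefore given as a description without a test, and the change over time in water hearts, which was not used to choose them, was tested.

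The animals were male wild-type SD rats, and whole heart tissue was sequenced after removal of ribosomal RNA. The 12 libraries fall into 4 groups of 3. These were deionized water for 14 days, sorafenib at 50 mg/kg for 14 days, deionized water for 28 days, and sorafenib at 50 mg/kg for 28 days, each given once daily. Sorafenib blocks several tyrosine kinases, among them VEGF and PDGF receptors, and RAF kinases. The labels do not say that each library came from a separate animal, so a p-value measures only the spread between these libraries. In bulk heart RNA, fewer cells of a type and less RNA per cell cannot be told apart.

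FMOs sit in the membrane of the endoplasmic reticulum. They bind flavin adenine dinucleotide (FAD) and use NADPH and oxygen to add an oxygen atom to nitrogen or sulfur atoms of drugs, diet-derived amines and some metabolites. Unlike cytochromes P450 they take their electrons directly from NADPH and need no reductase partner. FMO1 can also turn hypotaurine into taurine, an abundant osmolyte of heart muscle. FMO2 is best known as the main lung form of many mammals. FMO5 carries out Baeyer-Villiger oxidations of carbonyl compounds, and FMO4 and FMO6 are the least studied forms; the human counterpart of Fmo6 is regarded as a pseudogene.

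Total counts were 13746366 to 18534816 in the 6 libraries of day 14 and 16785038 to 26403196 in 5 libraries of day 28. Replicate 3 of sorafenib at day 28 held only 1036483 counts, with 16908 genes detected against 21899 to 22748 in the others. Values that rest on this shallow library are given with and without it. All 10 cardiomyocyte markers (Myh6, Actc1, Tnnt2 and others) had counts, with a summed level of 98032 to 210192 CPM. CPM is the count scaled to a common library size, here with TMM factors that correct for depth and composition.

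On assembly mRatBN7.2, 4 of the 5 genes lie side by side on the minus strand of chromosome 13. Fmo4 spans bases 75154683 to 75172932, Fmo1 75182184 to 75214439, Fmo2 75221149 to 75244377 and Fmo6 75256617 to 75288167. The gaps between them were 9.3, 6.7 and 12.2 kb, and no other annotated gene lies in them. Fmo5 lies apart, on the plus strand of chromosome 2 from 185197184 to 185249699. The counts were summed over the exons of each gene without regard to strand. Of the 2885 exon bases of Fmo5, 133 (4.61%) are shared with Chd1l on the other strand, while exons of the other 4 members overlap no other gene. Of other family symbols in the tables, Fmo13 had 0 counts in every library and Fmo9 had counts (1 and 5) in only 2 water libraries of day 28.

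Promoter sequences from RefSeq (assembly GRCr8, 250 bases before to 50 after the start of the gene) were found for 4 of the 5 members, and those of Fmo2 and Fmo6 are shown because these 2 neighbours had the highest sorafenib to water ratios of the 5 members at both days. They lie at chr13:77777485-77777784 for Fmo2 and chr13:77821909-77822208 for Fmo6, both on the minus strand, and are written 5′ to 3′ along the gene. Capitals mark the matches found among 7 motifs searched on both strands.
Fmo2: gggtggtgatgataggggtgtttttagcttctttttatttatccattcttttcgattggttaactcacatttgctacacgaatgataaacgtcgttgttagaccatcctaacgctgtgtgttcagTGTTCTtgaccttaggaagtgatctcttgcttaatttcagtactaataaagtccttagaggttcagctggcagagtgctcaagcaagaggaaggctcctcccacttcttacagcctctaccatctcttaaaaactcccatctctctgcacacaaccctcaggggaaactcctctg
Fmo6: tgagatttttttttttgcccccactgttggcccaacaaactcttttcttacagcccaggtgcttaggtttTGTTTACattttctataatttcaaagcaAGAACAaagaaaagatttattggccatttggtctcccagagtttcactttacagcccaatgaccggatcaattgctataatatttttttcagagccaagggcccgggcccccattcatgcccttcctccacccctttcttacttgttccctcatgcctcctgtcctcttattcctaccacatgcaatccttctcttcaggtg
In both promoters the capitals AGAACA or TGTTCT are the 2 strands of the short glucocorticoid receptor element TGTTCT, at -125 to -120 from the start in Fmo2 and at -152 to -147 in Fmo6. The Fmo1 promoter holds the same letters at -92 to -87, and the Fmo5 promoter does not. Of all 33465 promoters of this length, 20.7% hold TGTTCT. The other capitals in Fmo6, at -180 to -174, match the FOXO element GTAAACA on the opposite strand, which 3.78% of promoters hold. The only match in Fmo5 was GCGTG, the core element of the aryl hydrocarbon receptor, at -146 to -142, which 29.7% of promoters hold. The full palindromic glucocorticoid receptor element (held by 0.0149% of promoters), the NRF2 element TGACNNNGC (12.1%), the E-box CACGTG (6.42%) and the D-box TTATGNAA (3.66%) had no match in these windows. A match is a description of the letters and not evidence of binding.

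Fmo2 was the most abundant member in water hearts and Fmo6 was barely detected. Levels between genes were compared per kb of exon length. Averaged over the 6 water libraries, Fmo2 stood at 15.7 CPM per kb, Fmo1 at 8.64, Fmo5 at 2.44, Fmo4 at 1.09 and Fmo6 at 0.0994. Among 26016 genes with counts, these levels are at percentile 86.4 for Fmo2, 77.0 for Fmo1, 57.4 for Fmo5, 47.4 for Fmo4 and 22.7 for Fmo6.

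The order Fmo2, Fmo1, Fmo5, Fmo4, Fmo6 held in 10 of the 12 libraries. In replicate 3 of water at day 14, Fmo1 (8.91 CPM per kb) was above Fmo2 (7.38). In the shallow library, Fmo4 was above Fmo5, with 7 and 4 counts. Fmo2 and Fmo1 were thus not separated beyond their spread in water hearts of day 14 (11.6 ± 3.69 against 8.92 ± 0.605 CPM per kb, SD, n = 3). They were separated in water hearts of day 28, at 18.7 to 21.1 CPM per kb for Fmo2 and 7.40 to 9.90 for Fmo1. The other neighbours in the order did not overlap within either water group: at day 28 Fmo5 lay at 1.84 to 2.94 CPM per kb, Fmo4 at 0.681 to 1.06 and Fmo6 at 0.0590 to 0.193.

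**Figure D1:**
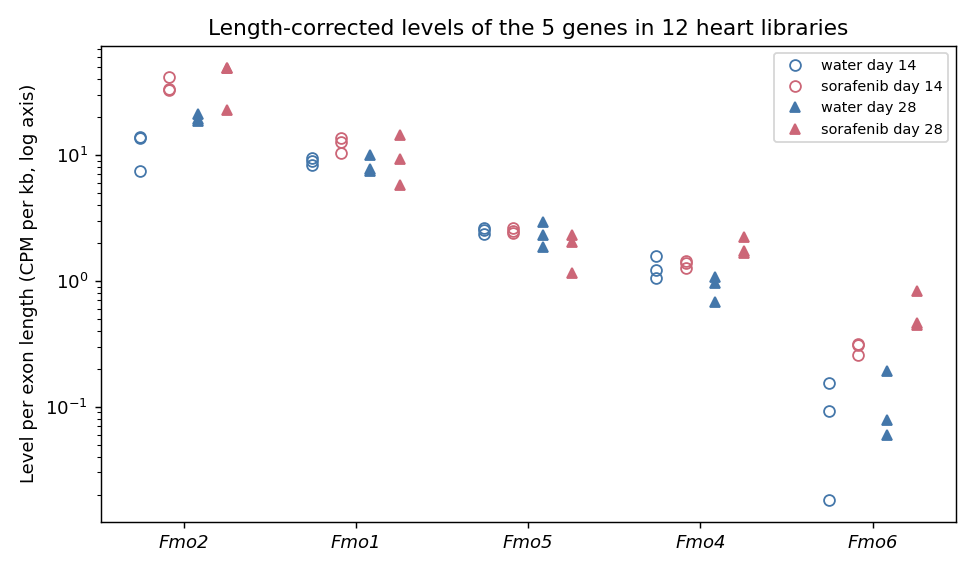
Level of each of the 5 genes in CPM per kb of exon length (log axis) in each of 12 libraries; circles are day 14, triangles day 28, blue water and red sorafenib. Fmo2 lies highest in all libraries but 1, and Fmo6 lies lowest in all 12, below 1 CPM per kb.

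Fmo2 was higher with sorafenib in every library at both days. At day 14 it was at 75.7, 40.1 and 73.7 CPM in the water hearts and at 178, 225 and 181 CPM in the sorafenib hearts. All sorafenib libraries were above the highest water library. At day 28 the water hearts had 102, 115 and 105 CPM and the sorafenib hearts 268, 124 and 268 CPM. Here the groups did not overlap either, but the lowest sorafenib value, 124 CPM, is that of the shallow library (148 counts, exact 95% Poisson interval 105 to 145 CPM). This interval takes in the highest water value of that day. The log2 fold change was 1.63 ± 0.23 (SE, 95% interval 1.11 to 2.15) at day 14 and 1.09 ± 0.25 (0.53 to 1.65) at day 28. Without the shallow library it was 1.34 at day 28. The average of both days was 1.34 ± 0.19, and 1.496 without the shallow library.

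Fmo6, the neighbour of Fmo2 in the cluster, had the same direction at a far lower level. Counts were 10, 2 and 16 in water hearts of day 14 and 24, 30 and 29 in sorafenib hearts. This was 0.521, 0.102 and 0.868 CPM against 1.44, 1.72 and 1.76 CPM, so the groups did not overlap. At day 28 the water hearts had 9, 22 and 7 counts (0.442, 1.08 and 0.331 CPM). The sorafenib hearts had 45, 3 and 70 counts (2.59, 2.51 and 4.65 CPM), again all above water. The 3 counts of the shallow library allow 0.517 to 7.32 CPM (exact 95% Poisson interval, counting error only) and so do not separate it from water. The log2 fold change was 1.72 ± 0.57 (0.44 to 3.00) at day 14 and 2.47 ± 0.57 (1.21 to 3.74) at day 28, or 2.55 without the shallow library. Fmo6 passed the filter on low counts through the sorafenib libraries: 3 of 3 sorafenib libraries but 1 of 3 water libraries reached the minimum at each day (0.565 CPM at day 14, 0.523 at day 28). The other 4 members reached it in all libraries.

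Fmo6 counts were also set against the Fmo2 counts of the same group. Per 1000 Fmo2 counts there were 7.78 Fmo6 counts in water hearts of day 14 (exact 95% interval 5.16 to 11.3), 8.40 with sorafenib (6.68 to 10.4), 5.75 in water hearts of day 28 (4.07 to 7.91) and 13.4 with sorafenib (11.04 to 16.0). These intervals cover counting error only, and that of sorafenib hearts of day 28 overlaps that of water hearts of day 14. Single libraries ranged from 2.54 to 11.8 in water hearts of day 14 and from 9.68 to 20.3 in sorafenib hearts of day 28. Sharing of reads between the 2 related genes was not tested.

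Fmo1, the hypotaurine-oxidising form, was modestly higher with sorafenib at day 14 and spread widely at day 28. At day 14 it was at 18.1, 19.4 and 20.7 CPM in water hearts and 27.5, 29.8 and 22.3 CPM in sorafenib hearts, with no overlap. At day 28 it was at 16.9, 16.1 and 21.5 CPM against 31.1, 12.5 and 20.3 CPM. The sorafenib libraries of day 28 lay on both sides of the water range, and the lowest was the shallow one (15 counts, 7.01 to 20.7 CPM). The log2 fold change was 0.46 ± 0.15 (0.12 to 0.80) at day 14 and 0.36 ± 0.27 (-0.24 to 0.96) at day 28. Without replicate 2 of sorafenib at day 28 the latter was -0.03.

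Fmo4 gave overlapping groups at day 14 and separate ones at day 28. It was at 3.23, 2.80 and 4.12 CPM in water hearts and 3.66, 3.79 and 3.33 CPM in sorafenib hearts of day 14. At day 28 it was at 2.55, 2.81 and 1.80 CPM in water and 4.37, 5.85 and 4.58 CPM in sorafenib hearts. The highest of these is the shallow library, whose 7 counts allow 2.35 to 12.05 CPM, and the other 2 sorafenib libraries also exceed all water libraries of that day. The log2 fold change was 0.09 ± 0.26 (-0.48 to 0.66) at day 14 and 1.02 ± 0.37 (0.19 to 1.85) at day 28, or 0.92 without the shallow library. Fmo4 had a mean of 3.38 ± 0.676 CPM (SD, n = 3) in water hearts of day 14 and 2.39 ± 0.524 CPM in those of day 28, with overlapping libraries.

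Fmo5, the Baeyer-Villiger form and the only member outside the cluster, gave overlapping groups at both days. It was at 7.61, 7.32 and 6.83 CPM in water hearts and 6.90, 7.18 and 7.63 CPM in sorafenib hearts of day 14. At day 28 the values were 6.67, 5.32 and 8.47 CPM against 5.87, 3.34 and 6.64 CPM. The lowest comes from 4 counts in the shallow library (0.910 to 8.55 CPM). The log2 fold change was 0.00 ± 0.18 (-0.40 to 0.40) at day 14 and -0.22 ± 0.31 (-0.92 to 0.48) at day 28, or -0.11 without the shallow library.

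**Figure D2:**
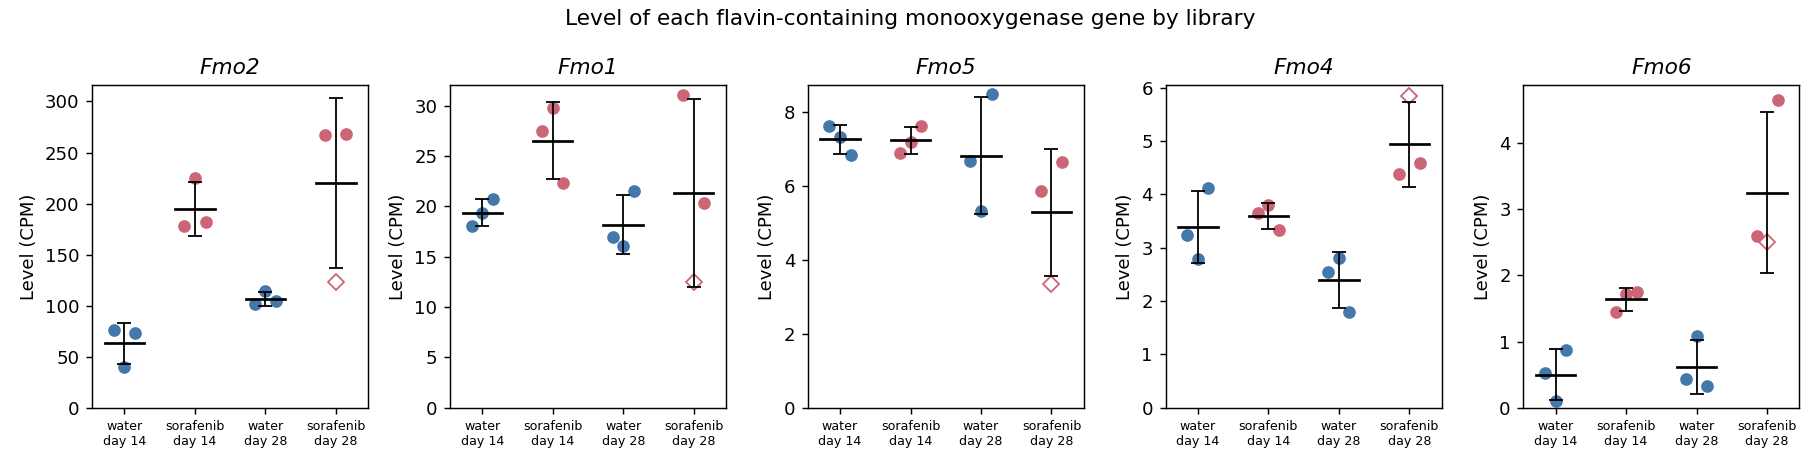
Level of each gene in CPM in each library by group; points are libraries, bars the mean and SD of 3 libraries, and the open diamond is the shallow library. Sorafenib libraries lie above all water libraries of the same day for Fmo2 and Fmo6 at both days, for Fmo1 at day 14 and for Fmo4 at day 28, while those of Fmo5 overlap at both.

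Counted by the threshold used for all genes (edgeR's quasi-likelihood test, Benjamini-Hochberg adjusted p below 0.05), 0 of the 5 members passed at day 14, where 0 of 17406 genes did (0%). At day 28 it was 0 of 5, and 0 of 17021 genes (0%). At an unadjusted p below 0.05 there were 3 of 5 members at each day, against 14% of all genes at day 14 and 14.9% at day 28. At day 14 DESeq2 passed 1 member (Fmo2), among 426 of 17406 genes. At day 28 it passed 2 (Fmo2 and Fmo6), among 270 of 17021 genes. In the average of both days, Fmo2 and Fmo6 passed, 2 of 5 members, against 4.41% of 18174 genes in either direction, 2% on the higher side and 2.41% on the lower. The count was 2 without the shallow library and 1 (Fmo2 alone) without replicate 3 of water at day 14, without replicate 6 of sorafenib at day 14 or without replicate 2 of sorafenib at day 28. Sorafenib libraries were all above water for 3 members at day 14 (10.5% of all genes), for 3 at day 28 (10.1%) and for 2 at both days (2.44%). They were below water at both days for 0 members (3.36% of all genes). Since the members were chosen with this contrast known, nothing is read from these shares.

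Day 14 and day 28 were set against each other through the difference of their log2 fold changes (day 28 minus day 14). It was -0.56 ± 0.38 for Fmo2 (-1.38 to 0.25), 0.74 ± 0.84 for Fmo6 (-1.07 to 2.54) and 0.89 ± 0.41 for Fmo4 (0.02 to 1.76). It was -0.12 ± 0.32 for Fmo1 and -0.23 ± 0.34 for Fmo5. Across all 18174 genes this difference passed the threshold for 0 (0%), and 4.42% had an unadjusted p below 0.05. A larger response at either day is therefore not established for any member, and the intervals of Fmo2 and Fmo6 are wide enough to hold a change of 1 log2 unit.

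**Figure D3:**
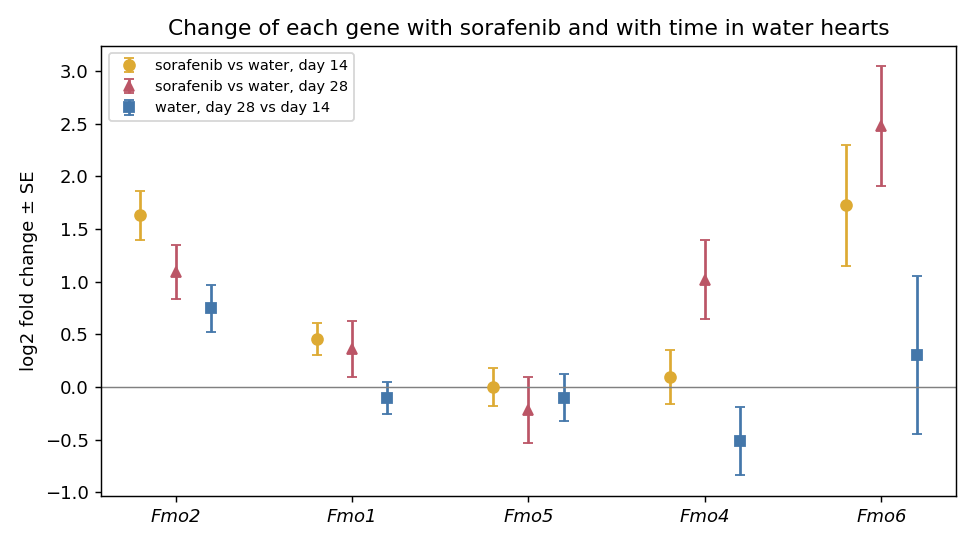
log2 fold change with SE for each gene: sorafenib against water at day 14 (circles) and day 28 (triangles), and water day 28 against water day 14 (squares). Fmo2 and Fmo6 lie highest for sorafenib at both days, and Fmo4 departs from 0 by more than its SE for sorafenib only at day 28.

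Summed over the 5 members, the level per exon length was 24.4 ± 3.96 CPM per kb in water and 52.3 ± 6.26 in sorafenib hearts of day 14 (SD, n = 3). At day 28 the sum was 31.4 ± 1.51 in water and 54.6 ± 19.4 in sorafenib hearts, where single libraries had 67.8, 32.4 (shallow) and 63.6. Most of the difference was Fmo2. Without Fmo2, the sum was 12.8 ± 0.712 and 16.4 ± 1.74 CPM per kb at day 14, and 11.7 ± 1.62 and 14.1 ± 4.44 at day 28. The share of Fmo2 in the sum was 37.1 to 53.2% in water hearts and 66.3 to 69.9% in sorafenib hearts of day 14. It was 58.7 to 66.8% in water hearts and 70.4 to 77.7% in sorafenib hearts of day 28. The FMO transcripts of the heart were thus a mixture of Fmo1 and Fmo2 in water hearts of day 14 and mainly Fmo2 in the sorafenib hearts.

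In water hearts, the comparison of day 28 with day 14 asked whether FMO transcripts differ between the days in the absence of sorafenib. Counts of day 14 and day 28 were deposited as separate sets. Time therefore cannot be told apart from any difference between the sets. This comparison shares its water libraries with the sorafenib comparisons. Fmo2 was at 63.1 ± 20.02 CPM at day 14 and 107 ± 6.82 CPM at day 28 (SD, n = 3), with all 3 libraries of day 28 above those of day 14. Its log2 fold change was 0.74 ± 0.22 (0.25 to 1.24), which did not pass (edgeR adjusted p = 0.0652), and across 13 alternatives the adjusted p ran from 0.0136 to 0.164. Only DESeq2 (0.0136), which passed 2765 of 17210 genes, was past the threshold. Without replicate 3 of water at day 14 the log2 fold change was 0.50. The other members had overlapping groups. Their values were -0.52 ± 0.32 for Fmo4 (adjusted p = 0.331), -0.11 ± 0.15 for Fmo1 (0.689), -0.10 ± 0.23 for Fmo5 (0.804) and 0.30 ± 0.75 for Fmo6 (0.825). With edgeR, 0 of 5 members passed, against 9.55% of 17210 genes (6.92% higher, 2.63% lower), and 1 of 5 had an unadjusted p below 0.05 (27.7% of all genes). Libraries of day 28 lay above those of day 14 for 18.3% of all genes. Fmo6 reached the minimum level of 0.509 CPM in 2 and 1 of the 3 libraries per group, and its value became negative without replicate 3 of water at day 14 (-0.18) or at day 28 (-0.35).

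The members were then compared over the 12 libraries, as log2 CPM centred on the mean of each day. These correlations are descriptions, since all points share the treatment and each library's depth. Fmo2 and Fmo6 had r = 0.86 (0.648 after centring on each group). Fmo2 and Fmo1 had r = 0.669, Fmo2 and Fmo4 0.448, and Fmo2 and Fmo5 0.0102. Fmo4 went with Fmo6 (0.791) and against Fmo5 (-0.741, or -0.575 without the shallow library). Neighbours in the cluster were not alike in this: Fmo1 and Fmo4, which are next to each other, had r = -0.032, or 0.428 without the shallow library.

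Among 13079 genes with a mean of 1 CPM or more, the patterns most like Fmo2 over the 12 libraries were those of Smarcd2 (r = 0.969), a chromatin remodelling subunit, Rhobtb1 (0.954), Cnksr1 (0.953), Ndrg1 (0.942), a stress-responsive gene, and Sult1a1 (0.936), a sulfotransferase of phenols and drugs. For Fmo6 they were Igf1r (0.94), the IGF1 receptor, Eqtn (0.929), Nemf (0.923), Zfp445 (0.91) and Zscan26 (0.906). For Fmo4 they were Slc28a1 (0.972), a nucleoside transporter, Zxdc (0.963), Otud5 (0.962), Nat2 (0.959), an arylamine N-acetyltransferase, and Hap1 (0.957). For Fmo1 the 5 genes from Hectd3 (0.919) to Nfyc (0.909) were closest. For Fmo5 they were Iars1 (0.973), Prf1, Unc5d, Mrpl34 and Cacng6 (0.951), and these values fell to between 0.8 and 0.914 without the shallow library. No member was among the 5 genes closest to another member.

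Genes around the members were looked at next, within 200 kb. Beside the cluster on chromosome 13, Prrc2c had an average log2 fold change of 0.15 ± 0.11 (edgeR adjusted p = 0.429) and Myoc of 0.07 ± 0.48 (0.952). Mroh9 and LOC102555487 had 0 to 5 counts and were not tested. Near Fmo5, Chd1l was at 0.09 ± 0.16 (0.771), Prkab2, an AMPK subunit, at -0.45 ± 0.13 (0.0631), Pde4dip at 0.22 ± 0.17 (0.445) and LOC102550575 at 0.96 ± 0.28 (0.0662). None of the neighbours tested passed the threshold.

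Other genes of drug metabolism were read from 6 lists, in the average of both days. At day 14 or day 28 singly, where edgeR passed 0 of all genes, no gene of any list passed. The P450 system list had 29 of 47 genes tested, and 4 were higher and 0 lower, where 2% of all genes were higher and 2.41% lower. The list's median log2 fold change was 0.15 against -0.01 over all genes. Those 4 were Cyp2e1, the ethanol-inducible P450 (1.78 ± 0.35, edgeR adjusted p = 0.0215), Cyp46a1, a cholesterol hydroxylase (1.47 ± 0.33, 0.0293), Cyp1a1, the classical aryl hydrocarbon receptor target (2.79 ± 0.73, 0.0462), and Cyp4f6 (0.51 ± 0.14, 0.0484). Cyp2e1 was at 1.999 ± 1.16 CPM in water and 11.1 ± 1.42 in sorafenib hearts of day 14, and at 6.37 ± 4.48 and 12.2 ± 7.44 at day 28 (SD, n = 3). Cyp1a1 rested on 1 to 26 counts per library in water and 26 to 121 in sorafenib hearts of day 14, and on 1 to 14 and 0 to 31 at day 28. Exons of Cyp2e1 and Cyp46a1 overlap those of another gene, so their reads could not be assigned with certainty. The number of genes of the list past the threshold became 0 without replicate 3 of water at day 14, replicate 6 of sorafenib at day 14 or replicate 2 of sorafenib at day 28. Its count became 1 without replicate 7 of sorafenib at day 14 and 2 without replicate 3 or 4 of water at day 28, not always from among these 4. Cyp2e1 passed in 14 of 18 alternatives, Cyp46a1 in 10, Cyp4f6 in 7 and Cyp1a1 in 5, and Cyp2e1 alone of the 4 passed without replicate 2 of water at day 14, replicate 7 of sorafenib at day 14 or replicate 4 of water at day 28.

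Among other enzymes of the first and second phases of drug metabolism, 50 of 62 genes were tested, and 5 were higher and 0 lower (median 0.04), again against 2% and 2.41% of all genes. They were Sult1a1 (1.09 ± 0.22, edgeR adjusted p = 0.0215), the arylamine acetyltransferase Nat2 (0.77 ± 0.18, 0.0349), the arsenite methyltransferase As3mt (0.53 ± 0.13, 0.0377), the aldehyde oxidase Aox3 (1.04 ± 0.25, 0.0384) and the glutathione transferase Gstm1 (0.56 ± 0.15, 0.0458). Sult1a1, also the enzyme of this list closest to Fmo2 in pattern, was at 21.9 ± 9.81 CPM in water and 68.5 ± 11.9 in sorafenib hearts of day 14, and at 29.7 ± 3.98 and 40.8 ± 16.6 at day 28. Nat2 gave 0.20 at day 14 and 1.40 at day 28, values close in order to those of Fmo4, and the difference between the days passed for no gene of the list. Exons of Nat2 overlap those of Nat1. The list's count became 0 to 3 when any 1 library was left out other than replicates 3 and 4 of sorafenib at day 28, which gave 4 and 7. Sult1a1 alone passed in 15 of 18 alternatives, and Nat2, As3mt, Aox3 and Gstm1 in 7 to 11.

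Genes that supply the cofactor and a substrate of the family gave 1 call. Of 20 NADPH-supplying genes (median -0.16), 0 were higher and 1 was lower, against 2% and 2.41% of all genes. The lower gene was the pentose phosphate enzyme Rpia (-0.47 ± 0.13, edgeR adjusted p = 0.049, past the threshold in 1 of 18 alternatives). None of 8 taurine genes passed with edgeR or DESeq2 in the average (median 0.06), and 1 had an unadjusted p below 0.05 (24.3% of all genes). The taurine transporter Slc6a6 was at 0.32 ± 0.14 (adjusted p = 0.179) and Ado, which oxidises cysteamine to hypotaurine, at -0.40 ± 0.20 (0.22). For Cdo1 of this list, named after its values were seen, the average of 0.20 ± 0.29 joined opposite values. At day 14 it was at 1.52 ± 0.36 (edgeR adjusted p = 0.154), above water in all sorafenib libraries (10.5% of all genes). At day 28 it was at -1.12 ± 0.49 (0.327), below water in all (11.9%). The difference between the days passed for 0 of 18174 genes.

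Drug transporters (23 of 28 tested, median 0.02) and xenobiotic receptors (22 of 23 tested, median 0.00) had no gene past edgeR's threshold. At an unadjusted p below 0.05 there were 8 and 5 genes, against 24.3% of all genes. DESeq2 passed 2 in each list, among 1822 of 18174 genes. Leaving out replicate 4 of sorafenib at day 28 gave 1 transporter and 2 receptors, and leaving out replicate 5 of sorafenib at day 14 gave 1 transporter. Closest were the efflux pumps Abcc1 (0.39 ± 0.12, edgeR adjusted p = 0.0725) and Abcb4 (0.39 ± 0.12, 0.0756), and the receptors Vdr (-0.77 ± 0.22, 0.0563) and Rxrg (-0.56 ± 0.18, 0.0875). The glucocorticoid receptor Nr3c1 was at -0.25 ± 0.12 (0.211) and the aryl hydrocarbon receptor Ahr at -0.34 ± 0.15 (0.173).

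**Figure D4:**
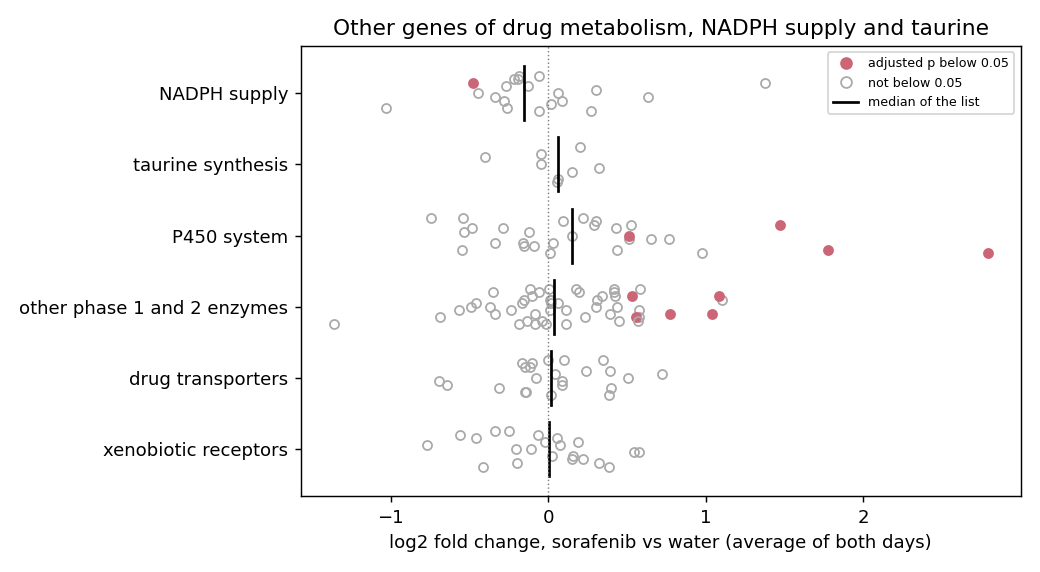
Average log2 fold change of sorafenib against water for every tested gene of the 6 lists; filled points passed the adjusted p threshold, bars are the list medians. The 9 filled points on the right belong to the P450 and the other drug-metabolising enzymes, and the 1 on the left is Rpia.

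In water hearts over time, the same lists gave 1 higher gene for NADPH supply, 2 for the P450 system, 6 higher and 1 lower for the other enzymes, 1 higher and 1 lower each for transporters and receptors, and 0 for taurine, against 9.55% of all genes. Named after their values were seen, Por, the P450 reductase, was higher at day 28 (0.91 ± 0.11, edgeR adjusted p = 0.00371) and Ahr was lower (-0.91 ± 0.17, 0.0152). Here too, time cannot be told apart from any difference between the separately deposited sets of libraries.

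Markers of other cells of the heart were read beside the Fmo2 values. The 10 endothelial markers summed to 1607 to 2004 CPM in water and 1496 to 1894 in sorafenib hearts of day 14, and to 1626 to 1731 and 1441 to 1717 at day 28. In the average, 2.41% of all genes were lower and 2% higher, the shares to set beside each marker list here. Of the 10 endothelial markers, 4 had a log2 fold change above 0, 3 were lower and 0 were higher. The 3 were Kdr, the main VEGF receptor (-0.73 ± 0.15, edgeR adjusted p = 0.0215), Cd34 (-0.70 ± 0.15, 0.0244) and Emcn (-0.54 ± 0.13, 0.0381). The 10 fibroblast markers summed to 4588 to 5291 and 4413 to 5437 CPM at day 14, and to 5095 to 8250 and 3517 to 6504 at day 28. Of these, 1 was lower in the average, Lum (-0.77 ± 0.16, edgeR adjusted p = 0.0231), and 0 were higher. The 10 myeloid markers summed to 187 to 340 and 93.6 to 218 CPM at day 14, and to 262 to 393 and 122 to 333 at day 28, with 3 of 10 lower in the average. The 10 pericyte and smooth muscle markers summed to 948 to 1113 and 1045 to 1162 CPM at day 14, and to 1037 to 1154 and 749 to 1067 at day 28. None of these sums was higher in all sorafenib libraries than in water. In the average, 1 of the 10 pericyte and smooth muscle markers was lower, Kcnj8 (-0.63 ± 0.12, edgeR adjusted p = 0.0185), and 0 were higher. At day 14, 6 of the 10 had a log2 fold change above 0, and in the average 4 did. The smooth muscle genes Acta2, Myh11, Tagln and Cnn1 were above water in all sorafenib libraries of day 14 (log2 fold changes 0.76 ± 0.21, 0.83 ± 0.19, 0.64 ± 0.22 and 1.25 ± 0.48), with overlap at day 28. They did not pass at either day or in the average (there, edgeR adjusted p = 0.153 to 0.291). In water hearts these 4 and Rgs5 were higher at day 28 than at day 14 (5 of 10 markers, edgeR, against 6.92% of all genes). The part of cell makeup in the FMO values was not tested.

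Since FMO2 is a lung enzyme, lung markers were also read. The airway club cell list summed to 0.521 to 1.63 CPM in water and 1.57 to 2.24 in sorafenib hearts of day 14, and to 0.331 to 1.42 and 3.34 to 4.199 at day 28. Of its 8 genes, Scgb3a2 and Bpifa1 were at 0 in all libraries and 4 more had a median of 3 counts or fewer. Scgb1a1, the main club cell secretoglobin, was at 0.474 ± 0.336 and 0.988 ± 0.0275 CPM at day 14 and 0.407 ± 0.147 and 2.44 ± 0.454 at day 28 (average 1.80 ± 0.40, edgeR adjusted p = 0.0286). Scgb3a1, the other club cell gene tested, was at 0.476 ± 0.247 and 0.647 ± 0.292 CPM at day 14 and 0.279 ± 0.253 and 1.15 ± 0.702 at day 28 (average 1.30 ± 0.56, adjusted p = 0.171). Of the 10 alveolar markers, 8 had counts, and Sftpa1 and Slc34a2 were at 0 in all 12 libraries. Sftpb, Sftpd and Lamp3 had a median of 3 counts or fewer, so the sum rests on the other alveolar genes. This sum was 87.0 to 89.5 CPM in water and 62.1 to 85.4 in sorafenib hearts of day 14. At day 28 it was 88.5 to 97.2 and 59.2 to 77.7, and at both days it was lower in all sorafenib libraries. Hopx (-0.92 ± 0.18, edgeR adjusted p = 0.0185) and Napsa (-1.61 ± 0.41, 0.0423) were lower in the average, 2 of 4 tested, against 2.41% of all genes. Of the hepatocyte markers, which include Cyp2e1, 6 of 10 (Alb among them) had a median of 3 counts or fewer, and their sum was 40.7 to 70.7 CPM in water and 37.7 to 60.0 in sorafenib hearts of day 14, and 43.5 to 169 and 38.8 to 62.2 at day 28. In the shallow library, which had the lowest Fmo2 level of the sorafenib hearts, Fmo2 was at 124 CPM, and no library had more than 4.199 CPM of summed club cell markers. The part of other tissue in the FMO values was not tested.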

How the data were processed

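Libraries from 12 rat heart samples were made with a strand-marking kit from RNA depleted of ribosomal RNA (labels' protocols). The authors deposited raw counts per gene, made with featureCounts 2.0.1 in paired mode and without a strand setting, per the file headers, on mRatBN7.2; STAR is named, with no version, in the submitters' processing notes. The exon length of each gene, deposited beside the counts, served for CPM per kb. Of the count columns, 2 match no sample and were not used.

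The members and gene lists were chosen with earlier results of these data known. Counts were tested with edgeR 4.0.16 (R 4.3.3, quasi-likelihood, robust dispersion, filterByExpr, TMM) with Benjamini-Hochberg adjustment over all genes tested, threshold 0.05. Each sorafenib group was compared with water of its day; the average and the difference of both days came from a fit of all 4 groups; water at day 28 was compared with water at day 14. The SE was taken as the log2 fold change over the root of F. Genes named beside the members are, per list, up to 5 of smallest p past the threshold in the average or else the 2 of smallest p, the 5 most correlated with each member, and those within 200 kb. Others named (Por, Cdo1, Kdr, Emcn, Cd34, Lum, Kcnj8, Scgb1a1, Scgb3a1, Hopx, Napsa, smooth muscle genes, Nr3c1, Ahr) were chosen after their values were seen. Alternatives were RLE factors, DESeq2 1.42.0, no filter or at least 1 CPM in 3 libraries, non-robust dispersion, all groups in 1 fit, blocking on the title number, and omission of single libraries; those for the named genes outside the family were added after seeing the data. Of the symbols in the lists, Gstm3 was not found. On symbols placed in both mRatBN7.2 and GRCr8 (27158), 99.79% shared the chromosome. Code was tested on simulated counts.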

Additional observations from a re-analysis of the deposited data

How the results depend on the processing

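The sorafenib values of Fmo2 kept their sign in every alternative run at each day and in the average, as did those of Fmo6. In the average, Fmo2 was past the threshold in 17 of 18 alternatives and Fmo6 in 14 of 18. The members were chosen with this contrast known, so these tallies are a description and not support. Fmo6 moreover passed the filter on low counts through the sorafenib libraries. The number of members past the threshold was 0 at day 14. It became 1 with no filter on low counts (87 of 25871 genes passed) and 1 with DESeq2 (426 of 17406). At day 28 it was 0 and became 2 with DESeq2 (270 of 17021 genes). In water hearts it was 0 and became 1 with DESeq2 (2765 of 17210 genes). In the average it was 2, ran from 1 to 2 with single libraries left out, and became 0 with the replicate block. The count over all genes in the average, 801, ran from 35 to 1562 with single libraries left out and was 38 with the block and 1822 with DESeq2.

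The labels do not say whether the replicate numbers pair the samples. Deviations of same-numbered water and sorafenib libraries of day 28 correlated at 0.115, 0.00238 and 0.163, and those of water libraries of the 2 days at 0.0177 and -0.0229. These few values from groups of 3 cannot decide it. The block gave 108 genes past the threshold at day 28 (0 without it) and 2171 in water over time (1643 without it), with no member among them. With the block, the average was 1.13 for Fmo2 and 1.75 for Fmo6, and 0 genes of the P450 list and 0 of the other enzymes passed. No block was possible at day 14, where the groups share 1 number.

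Changes of sign occurred in values near 0 and the cause was not tested. For Fmo5 at day 14 (0.00) they were -0.0071 with RLE factors, -0.00096 with the stricter filter, -0.0073 with DESeq2, -0.0041 with all groups in the fit, and -0.0406 to 0.0320 with single libraries left out. Fmo4 at day 14 ran from -0.0325 (without replicate 3 of water) to 0.258 (without replicate 7). Fmo1 at day 28 ran from -0.0333 (without replicate 2 of sorafenib) to 0.524, and its difference between the days from -0.49 to 0.0578, with 0.0243 without replicate 4 of water at day 28, 0.0578 without the shallow library and 0.184 with the block. Over time in water with single libraries left out, Fmo6 ran from -0.35 to 0.976, with -0.184 and -0.35 without replicate 3 of day 14 or of day 28, and Fmo5 from -0.273 to 0.0624 (without replicate 3 of day 28); with the block they were 1.28 and -0.319.

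Depth limits Fmo6 and, in the shallow library, Fmo1, Fmo4 and Fmo5, where 3 to 15 counts carry each value. Counting intervals cover counting error only.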
